A study of Mus musculus with 5 samples.

Results

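The cytosolic ribosomal protein genes encode the protein part of the ribosome that translates nuclear messenger RNAs. They were taken as the protein-coding rows with a symbol of the Rpl or Rps form, plus Rplp0, Rplp1, Rplp2 and Rpsa, leaving out the Rps6k kinases and the -ps pseudogenes. The rule found 80 genes among 36401 gene identifiers, 32 of the small and 48 of the large subunit, and 77 of them (32 and 45) had enough counts to be tested. RNA sequencing was done on snap-frozen liver (lobe 1) of BALB/C mice sacrificed on day 10 of life, with 2 Mdr2+/+ (wild-type) and 3 Mdr2+/- (heterozygous) libraries. Mdr2, also called Abcb4, encodes the transporter that moves phosphatidylcholine into bile, and the heterozygous mice carry 1 intact copy of it in every cell. The labels name no treatment in either genotype, and littermates of both genotypes were used. Whether each library came from a different mouse is not stated, so p-values cover only the spread among these 5 libraries, which may be technical.

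Each ribosome has a small subunit, which reads the messenger RNA, and a large subunit, which joins the amino acids and holds the tunnel through which the new protein leaves. Most ribosomal proteins are used in near-equal numbers, and ribosomal protein messenger RNAs are among the most abundant in growing tissue. These messenger RNAs are short, and they begin with a C followed by a run of pyrimidines (the terminal oligopyrimidine, or TOP, motif), through which mTOR signalling controls their translation. The liver of a newborn mouse grows fast, secretes much protein, and still makes blood cells, which themselves hold many ribosomes.

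The libraries held 11944157 to 17312851 estimated counts. Abcb4 was at 162.0 and 161.9 CPM (library-scaled read counts with edgeR's TMM factors) in the wild-type libraries and at 100.5, 97.6 and 92.5 CPM in the heterozygous ones, a log2 fold change of -0.74 (SE 0.06, edgeR adjusted p = 3.4e-04), so the genotype labels and this gene went the same way. All 12 hepatocyte markers were detected, with a summed level of 176388 to 190573 CPM in wild-type and 188840 to 204061 CPM in heterozygous liver. Fold changes are given as heterozygous against wild-type on the log2 scale, and a gene is said to have fallen or risen where its edgeR quasi-likelihood p, adjusted over all 13959 tested genes, was under 0.05.

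The sequences around the start sites are shown because a TOP motif, for which these genes are known, begins at the first base of the messenger RNA. Each stretch below is the sense strand from 40 bases before to 30 bases after the RefSeq start (GRCm38.p6), with the longest run of C and T that begins with C in capitals (the first of them where several are equally long). The genes with the largest falls come first, at chr1:39367811-39367880 (+), chr11:114668540-114668609 (+), chr13:90923082-90923151 (+) and chrX:37085193-37085262 (-).
Rpl31: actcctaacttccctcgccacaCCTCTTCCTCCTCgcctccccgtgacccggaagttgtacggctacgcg
Rpl38: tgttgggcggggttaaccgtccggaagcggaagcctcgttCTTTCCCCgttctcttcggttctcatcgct
Rps23: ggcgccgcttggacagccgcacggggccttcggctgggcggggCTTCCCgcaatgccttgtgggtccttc
Rpl39: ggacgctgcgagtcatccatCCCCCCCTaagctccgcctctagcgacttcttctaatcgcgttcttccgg
Genes from the least lowered end follow (Rpl22, which has several RefSeq starts, is not shown), at chr5:65391402-65391471 (-), chr5:107900488-107900557 (+), chr5:115559427-115559496 (+) and chrX:102189362-102189431 (-).
Rpl9: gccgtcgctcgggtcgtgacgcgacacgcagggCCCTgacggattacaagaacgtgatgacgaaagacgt
Rpl5: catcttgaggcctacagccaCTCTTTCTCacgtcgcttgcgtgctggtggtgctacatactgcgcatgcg
Rplp0: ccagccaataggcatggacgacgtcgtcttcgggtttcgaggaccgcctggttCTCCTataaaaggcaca
Rps4x: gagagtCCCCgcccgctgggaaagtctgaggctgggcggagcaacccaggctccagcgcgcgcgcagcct

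Counted from the RefSeq start, the run in capitals began at 0 in Rpl38, 3 in Rps23 and 13 in Rplp0. It began before the start in Rpl31 (-18), Rpl39 (-20), Rpl9 (-7), Rpl5 (-20) and Rps4x (-34). A run in capitals is therefore not in itself a TOP motif. RefSeq starts were found for 60 of the 80 genes, with 72 starts in all. A run of at least 8 pyrimidines beginning with C lay in this 70-base window at 39 of the 72 starts (54.2%). Over all genes it lay there at 6946 of 32851 starts (21.1%). The run was counted on either side of the start, so these are not counts of TOP motifs. The letters CCGGAA, searched on both strands of the 300-base promoter, were present at 34 of 72 (47.2%) against 4894 of all (14.9%). TATAAA on the sense strand of the window was present at 3 of 72 (4.17%) against 914 of all (2.78%), and Rplp0 above is an example. Among the 42 starts of genes that fell, 27 had the pyrimidine run and 22 had CCGGAA. Among the 26 starts of tested genes that did not pass the test, 11 had the run and 11 had CCGGAA. A match describes the letters only, and both groups of genes hold starts with and without each of them.

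Ribosomal protein messenger RNAs were lower in heterozygous liver as a group. Of the 77 tested genes, 49 fell and 0 rose, where 5.41% of all tested genes fell and 6.63% rose. An offset for transcript length, described further on, left 8 of these 49 calls and moved the median given next to -0.10. At an unadjusted p under 0.05, 69 were lower and 0 higher by edgeR, and DESeq2 and limma, with adjusted p-values, called 49 and 53 lower and 0 higher. Their median log2 fold change was -0.25, against -0.00 over all tested genes, and ran from -0.50 (Rpl31) to 0.06 (Rpl9). The levels in heterozygous liver were 70.5% to 105% of wild-type, with a median of 83.9%. In 75 of the 77 genes every heterozygous library lay below every wild-type library, an order seen in 22.7% of all tested genes, while the reverse order, seen in 22.9%, occurred in 0 of the 77. The exceptions with overlapping groups were Rps26 and Rpl9. The genes differed from each other by somewhat more than their errors: the SD of the log2 fold change over the 77 genes was 0.10, and the SE of a single gene was 0.06 to 0.08. With fewer libraries fewer genes passed: 18 fell when wild-type replicate 1 was left out and 25 when wild-type replicate 2 was, while leaving out heterozygous replicate 1, 2 or 3 gave 30, 21 or 29. In whole liver, fewer cells of a type that is rich in ribosomes and less of this RNA in each cell cannot be told apart.

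**Figure D1:**
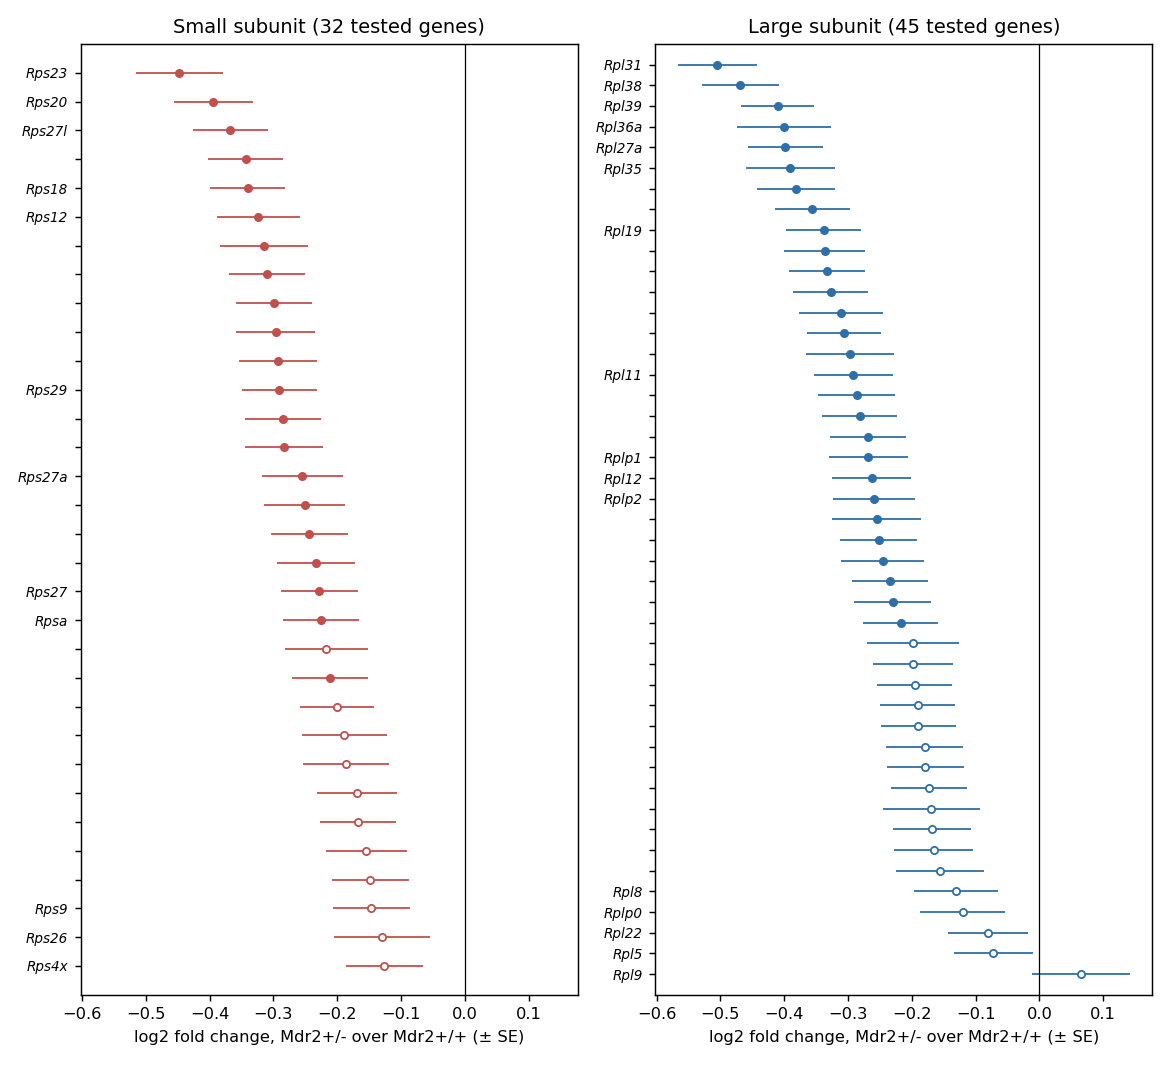
Log2 fold change of each tested ribosomal protein gene (heterozygous against wild-type, with its standard error), ordered by size within the small and the large subunit; filled points passed the edgeR test, and labels are given for genes at both ends and for some others described in the text. Nearly all points lie left of 0, from -0.50 to 0.06, and 49 of 77 passed the test.

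Summed over all 80 genes, ribosomal protein counts made up 1.81% (95% Wilson interval 1.80 to 1.81) and 1.71% (1.70 to 1.72) of the estimated counts in the wild-type libraries. They made up 1.43% (1.42 to 1.43), 1.46% (1.46 to 1.47) and 1.46% (1.45 to 1.47) in the heterozygous libraries; these intervals cover counting error only. With TMM scaling the sum was 17470 and 17159 CPM in wild-type and 14543, 14740 and 14681 CPM in heterozygous liver. The heterozygous mean was thus 84.6% of the wild-type mean, with SDs of 101 CPM (n = 3) and 220 CPM (n = 2), and the groups did not overlap. The decrease was therefore carried by every heterozygous library and not by a single one.

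**Figure D2:**
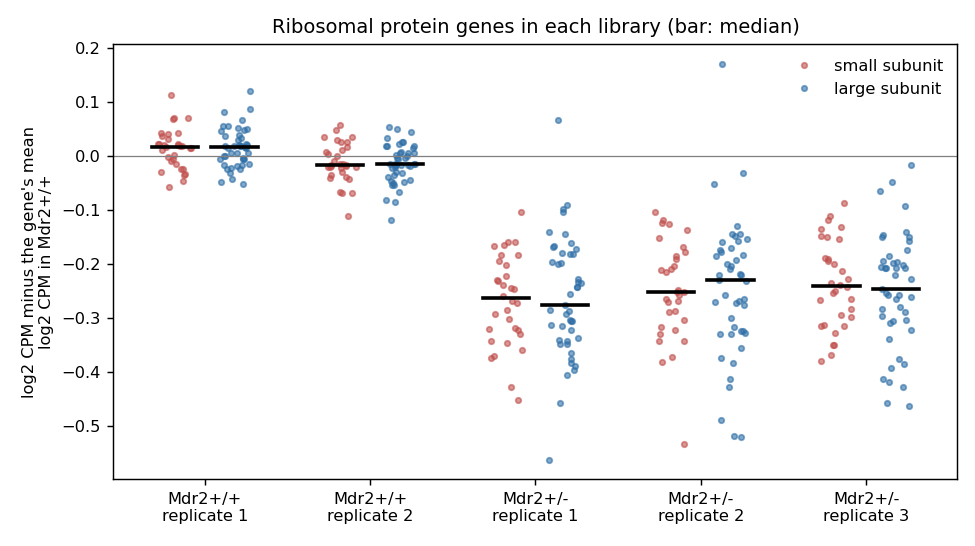
Level of each tested ribosomal protein gene in each of the 5 libraries, as its log2 CPM minus its mean log2 CPM in the wild-type libraries; red points are small and blue points large subunit genes, and bars are medians. The points of both wild-type libraries lie around 0, and those of all 3 heterozygous libraries lie around -0.25 with nearly all genes below 0, in both subunits.

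Both subunits were lower by nearly the same share. The small subunit genes summed to 7183 and 7067 CPM in wild-type and to 5967, 6053 and 6060 CPM in heterozygous liver, 84.6% of wild-type. The large subunit genes summed to 10287 and 10092 CPM in wild-type and to 8576, 8686 and 8621 CPM in heterozygous liver, 84.7% of wild-type. The ratio of the small to the large sum was 0.698 and 0.700 in wild-type against 0.696, 0.697 and 0.703 in heterozygous libraries, so the groups overlapped and their means differed by less than either SD. By single genes, 21 of 32 small subunit genes fell (65.6%, median -0.25) and 28 of 45 large subunit genes (62.2%, median -0.26). The large subunit genes were more spread, with an SD of the log2 fold change of 0.11 against 0.08 for the small subunit.

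The largest fall was in Rpl31 (chr1:39367842-39371911, GRCm38), a large subunit protein at the rim of the exit tunnel. Its level was 239 and 233 CPM in wild-type and 160, 168 and 171 CPM in heterozygous libraries (log2 fold change -0.50, SE 0.06, edgeR adjusted p = 0.00159). Every heterozygous value was well below both wild-type values. Rpl38, known from mice in which its loss alters the axial skeleton, was at 137 and 140 CPM against 101, 96.6 and 103 CPM (-0.47, SE 0.06, adjusted p = 0.00195). Rpl39, a very small protein that lines the exit tunnel, was at 169 in both wild-type libraries and at 128, 127 and 126 CPM in the heterozygous ones (-0.41, SE 0.06, adjusted p = 0.00298). The values of Rpl39 within each genotype were nearly equal, and the genotypes were far apart by comparison. Of the 7 proteins listed at the tunnel exit, 7 fell and the median was -0.36, where 5.41% of all tested genes and 63.6% of the ribosomal protein genes fell. With the length offset 2 of the 7 fell (median -0.17); this list was drawn up with earlier results of these data known, as all the lists here were. Rpl35, which sits at the tunnel exit where targeting factors dock, went from 162 and 147 to 118, 123 and 112 CPM (-0.39, adjusted p = 0.00826, but 0.0579 without wild-type replicate 1). Rpl26, another protein of this rim, went from 110.3 and 108 to 87.1, 85.1 and 83.4 CPM (-0.36), and Rpl19 went from 377 and 368 to 292, 297 and 294 CPM (-0.34).

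Rpl27a and Rpl36a were further large subunit genes with large falls. Rpl27a was at 210 and 205 CPM in wild-type and at 157, 160.1 and 156 CPM in heterozygous liver (-0.40, SE 0.06, adjusted p = 0.00366). Rpl36a was at 85.6 and 83.3 against 65.0, 58.9 and 68.1 CPM (-0.40, adjusted p = 0.00921, and 0.0558 without wild-type replicate 1). The groups did not overlap in either gene, an order seen in 75 of the 77 ribosomal protein genes and in 22.7% of all tested genes. The heterozygous libraries of Rpl36a were more scattered.

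The stalk of the large subunit, which recruits the elongation factors, is built from Rplp0, Rplp1, Rplp2 and Rpl12, of which 3 fell, and 0 with the length offset. Rplp1 was at 421 and 390.0 CPM in wild-type and at 339, 339 and 332 CPM in heterozygous liver (-0.27, SE 0.06, adjusted p = 0.0239). Its partner Rplp2 went from 113 and 104 to 87.1, 92.4 and 92.5 CPM (-0.26, adjusted p = 0.0310), and Rpl12, at the stalk base, from 211 and 202 to 167, 177 and 172 CPM (-0.26, adjusted p = 0.0250). Rplp0, the scaffold on which both pairs of P proteins sit, was at 423 and 428 against 396, 410.0 and 369 CPM (-0.12, SE 0.07, adjusted p = 0.277) and did not pass the test. All 4 genes had every heterozygous value below every wild-type value, as had 75 of the 77 ribosomal protein genes and 22.7% of all tested genes. The calls for the other 3 were narrow: that of Rpl12 ended when any library was left out, and those of Rplp1 and Rplp2 when wild-type replicate 1 or any heterozygous library was (adjusted p up to 0.12 for Rplp1, 0.16 for Rplp2 and 0.117 for Rpl12).

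Rpl5 and Rpl11 enter the ribosome together with an RNA of the large subunit and, when free of it, can bind Mdm2 and so stabilise p53. Rpl11 fell, from 189 and 178 to 151, 146 and 153 CPM (-0.29, SE 0.06, adjusted p = 0.0171, and 0.0701 to 0.0954 without wild-type replicate 1 or heterozygous replicate 2). Rpl5 was at 261 and 273 against 251, 261 and 250 CPM (-0.07, SE 0.06, adjusted p = 0.493). The values of Rpl5 nearly met, since its highest heterozygous value was at the lowest wild-type value. Of 14 p53 targets and regulators, 1 fell (7.14%, near the 5.41% of all tested genes) and 0 rose (median 0.02). The gene that fell was Bax, a promoter of cell death (-0.36, adjusted p = 0.0459), and its call ended when any library was left out.

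Among the small subunit genes, Rps23, whose protein forms part of the decoding centre, fell most. It was at 82.7 and 78.2 CPM in wild-type and at 59.7, 55.5 and 61.8 CPM in heterozygous liver (-0.45, SE 0.07, adjusted p = 0.00415). Rps20, in the head of the small subunit, was at 195 and 190.3 against 141, 148 and 151 CPM (-0.39, SE 0.06, adjusted p = 0.00455). In both genes the genotypes were clearly apart. Of the 14 head proteins listed, 11 fell (78.6%, against 63.6% of the ribosomal protein genes and 5.41% of all tested genes) and the median was -0.29. With the length offset 1 of the 14 fell (median -0.11). Rps18 went from 363 and 357 to 283, 288 and 282 CPM (-0.34, adjusted p = 0.0070), and Rps12 from 306 and 279 to 233, 230.3 and 237 CPM (-0.32, adjusted p = 0.0141, but 0.0565 to 0.0834 without wild-type replicate 1 or heterozygous replicate 2). Rps29, a small zinc-binding head protein, went from 224 and 229 to 186, 187 and 182 CPM (-0.29, adjusted p = 0.0145, but 0.0503 to 0.0660 without either wild-type library or heterozygous replicate 3).

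Rpsa, which is also known as the laminin receptor, was among the most abundant by counts, at 502 and 481 CPM in wild-type and 419, 427 and 416 CPM in heterozygous liver (-0.23, adjusted p = 0.0389). Rps27a, made as a fusion with ubiquitin, went from 191 and 204 to 165, 162 and 170.3 CPM (-0.25, adjusted p = 0.0305). Both calls ended when any library was left out, with adjusted p of 0.0722 to 0.142 for Rpsa and 0.0574 to 0.142 for Rps27a. The groups of both genes did not overlap, an order seen in 75 of the 77 ribosomal protein genes and in 22.7% of all tested genes.

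The genes that were least lowered belonged to both subunits. Rpl9 (chr5:65388364-65391444, GRCm38) had a fold change above 0, with 160 and 171 CPM in wild-type and 173, 186 and 160 CPM in heterozygous liver (0.06, SE 0.08, adjusted p = 0.631). Rps26 was at 148 and 127 against 122, 125 and 129 CPM (-0.13, adjusted p = 0.3), and 1 wild-type library lay within the heterozygous range. Rpl22 was at 79.4 and 80.0 against 74.4, 72.8 and 78.8 CPM (-0.08, adjusted p = 0.446). Rps4x, the X-linked copy of a gene with a Y-linked copy in humans, was at 303 and 316 against 288, 285 and 278 CPM (-0.13, adjusted p = 0.209). Rpl8, of the peptidyl transferase region, was at 328 and 307 against 282, 285 and 303 CPM (-0.13, adjusted p = 0.231), and Rps9 at 218 and 213 against 190, 196 and 198 CPM (-0.15, adjusted p = 0.147). A missed test does not show that these genes were equal in the genotypes: all but Rpl9 had a lower heterozygous mean. Among the genes just outside the threshold were Rps15 (-0.20, adjusted p = 0.0542) and Rps19 (-0.22, adjusted p = 0.0595), both named because of their values.

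Several ribosomal proteins have paralogs. Rps27 was at 168 and 174 against 145, 150.1 and 144 CPM (-0.23, adjusted p = 0.0383, and 0.0817 to 0.144 with any library left out). Its paralog Rps27l, a p53 target, fell from 87.8 and 92.1 to 70.1, 69.4 and 69.6 CPM (-0.37, SE 0.06, adjusted p = 0.0051). Rpl3l, Rpl10l and Rpl39l, paralogs used mainly in muscle or testis, were close to absent: the estimated counts over the 5 libraries were 0, 0, 1, 0 and 0 for Rpl3l, 2, 1, 1, 3 and 1 for Rpl10l and 0, 0, 1, 2 and 1 for Rpl39l, where 3 counts correspond to 0.173 to 0.251 CPM. No fold is given for them. Outside the symbol rule, 2 of 6 related genes fell (33.3%, against 5.41% of all tested genes). With the length offset 0 of the 6 fell (median -0.016), and DESeq2 without it called 1 lower. The 2 genes were Rpl36al, the paralog of Rpl36a (-0.37, edgeR adjusted p = 0.00874), and Rpl22l1, the paralog of Rpl22 (-0.33, edgeR adjusted p = 0.0479). The call of Rpl36al ended without wild-type replicate 2. That of Rpl22l1 ended when any library but heterozygous replicate 3 was left out. Reads shared by such copies, or by processed pseudogenes, may have been assigned to either. The 155 -ps rows held 1.21% to 1.26% as many counts as the ribosomal protein genes in every library. The row named Rpl24 carries an identifier that belongs to another gene in GENCODE M21, so its values are uncertain and are counted but not described.

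Inherited loss of a single ribosomal protein gene copy causes Diamond-Blackfan anaemia, a failure of red cell production. Of 18 genes listed for it, 14 fell (77.8%, median -0.29) against 49 of 77 (63.6%) of all those tested, and 2 fell with the length offset (median -0.12). The 2 were Rps15a and Rps24, which did not pass with the shortest coding transcript (640 and 468 bases). Among the 18, Rpl35a went from 197 and 202 to 158, 148 and 154 CPM (-0.38, adjusted p = 0.0050), and its groups were well apart. The genes were spread over the genome, with 14 on chromosome 7, 7 each on chromosomes 9, 11 and 17, and 0 on chromosome 19. Of the 4 on the X chromosome, 2 fell, or 50% against 63.6% of the ribosomal protein genes and 5.41% of all tested genes. With the length offset 1 of the 4 fell.

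Compared per kilobase of transcript (RPKM), the level of ribosomal protein messenger RNAs differed much between genes although most of the proteins are used in near-equal numbers. Rplp1 was highest, at 812 ± 43.6 RPKM (SD, n = 2) in wild-type and 675 ± 7.38 RPKM (n = 3) in heterozygous liver. Its protein is an exception to equal use, being one of the P proteins that sit on the stalk in pairs. Rps18, Rps12, Rps29, Rps27 and Rpl19 followed, with wild-type means of 643, 592, 579.7, 497 and 496 RPKM and heterozygous means of 508, 473, 474, 424 and 392 RPKM. The median over the tested genes was 256 RPKM. The lowest value, 15.0 RPKM, belonged to Rps15a and rests on an annotated transcript of 5130 bases, whereas its shortest coding transcript has 640 bases, so the lower end of this order depends on the transcript chosen.

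Ribosomal protein transcripts are short, and in these libraries the median short transcript outside this group was lower in heterozygous liver too. The annotated transcripts of the tested ribosomal protein genes had a median of 751 bases. Among other genes of at most 1000 bases, 148 of 1265 fell (11.7%) and 42 rose (3.32%), with a median log2 fold change of -0.18, against 39 of 57 ribosomal protein genes (68.4%) with a median of -0.26. Among those other short genes with at least 50 CPM, 71 of 187 fell (38%, median -0.20). This floor lies below the lowest tested ribosomal protein gene (mean 60.3 CPM) and has no upper limit, so abundance was not matched. Above 1000 bases, 10 of 20 ribosomal protein genes fell (50%, median -0.21), against 200 of 2207 other genes of at least 50 CPM (9.06%, median 0.05). Those longer classes differ in length, since 18 of the 20 ribosomal protein genes lay between 1000 and 2200 bases and most of the others above 2200, so narrower bins were set side by side with no test. Between 400 and 600 bases, 15 of 17 ribosomal protein genes fell (88.2%, median -0.32) against 20 of 47 other genes of at least 50 CPM (42.6%, median -0.22). Between 600 and 800 bases, 11 of 21 fell (52.4%, median -0.22) against 25 of 68 (36.8%, median -0.18), and between 800 and 1000 bases 9 of 13 (69.2%, median -0.25) against 23 of 67 (34.3%, median -0.19). Between 1000 and 1300 bases, 6 of 10 fell (60%, median -0.24) against 42 of 142 (29.6%, median -0.09), and between 1300 and 1700 bases 2 of 5 (40%, median -0.19) against 42 of 252 (16.7%, median -0.05). In each of these 5 bins the median of the ribosomal protein genes was the lower of the pair. The thinly filled ends differed: up to 400 bases 4 of 6 fell (median -0.26) against 3 of 5 (median -0.32), and between 1700 and 2200 bases 0 of 3 (median -0.080) against 43 of 370 (11.6%, median -0.020). Above 3000 bases stand only Rps20 and Rps15a, which both fell.

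**Figure D3:**
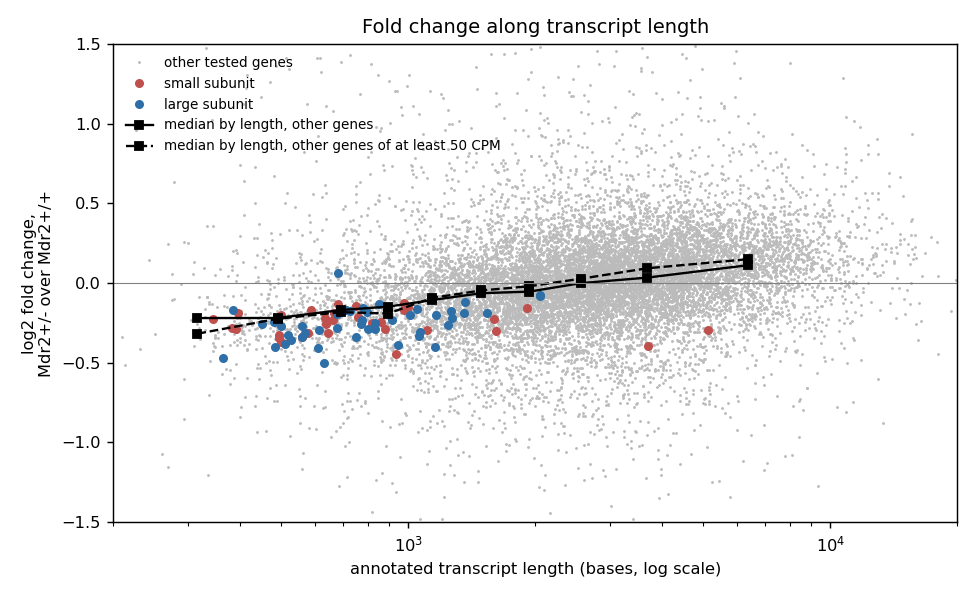
Log2 fold change against transcript length (bases, log axis) for the ribosomal protein genes and for other tested genes, with lines for the medians of other genes in length bins (solid, all; dashed, at least 50 CPM). The medians of other genes run from -0.22 in the shortest bins to 0.11 above 4500 bases, and the median of ribosomal protein genes of at most 1000 bases is -0.26 against -0.18 for the others.

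Over the 13571 tested genes that had a length in the annotation, longer genes had higher log2 fold changes (Spearman's rho 0.29), a description over genes that share the same 5 libraries. Within the ribosomal protein genes it was 0.31 (n = 77), with 0.13 for the small (n = 32) and 0.45 for the large subunit (n = 45), and 0.48 with the number of exons. By library, the median deviation of the ribosomal protein genes from their mean over libraries was 0.17 and 0.13 in wild-type against -0.11, -0.09 and -0.10 in heterozygous libraries. That of other short genes was 0.09 and 0.12 in wild-type against -0.09, -0.06 and -0.03 in heterozygous libraries. The length trend therefore divided the libraries by genotype, as the ribosomal protein genes did, and in 5 such libraries the length trend and the genotype cannot be told apart.

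An offset that removes the length trend within each library took away most of the calls. With it, 8 of the 77 genes fell and 0 rose, where 3.85% of all tested genes fell and 5.01% rose, and the median log2 fold change was -0.10. All 8 had also fallen without it. They were Rpl31 (-0.32, adjusted p = 0.0111), Rpl38 (-0.23, 0.0428), Rpl39 (-0.22, 0.0462) and Rpl27a (-0.29, 0.0174) of the large subunit, and Rps23 (-0.31, 0.0249), Rps20 (-0.43, 0.00416), Rps15a and Rps24 of the small subunit; the last pair is named because its values were seen. The annotated lengths of Rps20, Rps15a and Rps24, at 3706, 5130 and 1613 bases, are unusual for these genes. Rps15a and Rps24 did not pass with the shortest coding transcript (640 and 468 bases). For Rps20 the longest and the shortest coding transcript also have 3706 bases, so no length setting tried it at a shorter length. Without the offset, the call of Rps24 ended without wild-type replicate 2 and that of Rps15a without either wild-type library or heterozygous replicate 2. Other genes lost most of their difference: Rps27l went to -0.16 (adjusted p = 0.134), Rpl36a to -0.19 (0.132), Rps29 to -0.06 and Rps27 to 0.02 (0.882). Rpl9 went to 0.24 (0.0952). Over all 6 length settings tried, 4 genes fell each time, Rpl27a, Rpl31, Rps20 and Rps23, and they were also the 4 that fell in each of the 21 alternative settings. Rps23 has 937 bases in every length used, and Rpl27a has 1158 or, for the longest transcript, 1596. Like Rps20, neither was tried at a length shorter than the principal one.

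**Figure D4:**
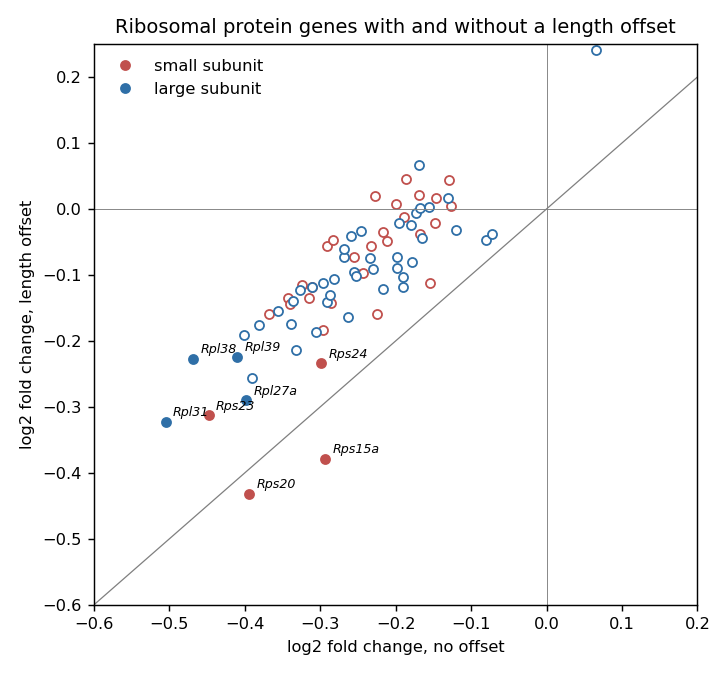
Log2 fold change of each tested ribosomal protein gene without (x axis) and with (y axis) the length offset, with the line of equal values. Most points move toward 0, from a median of -0.25 to -0.10, and the 8 genes that passed the test with it are filled and named.

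Other genes of the translation machinery did not all go the same way. Of 17 further genes with TOP messenger RNAs, 3 fell (17.6%) and 1 rose (5.88%), with a median of -0.12. Over all tested genes 5.41% fell and 6.63% rose. With the length offset 0 of the 17 fell and 1 rose (median -0.025). Without it, DESeq2 called 1 lower and 2 higher, and limma called 3 lower and 1 higher, so the balance of calls depended on the tool. Tpt1, a growth-related protein, fell from a mean of 960 to 797 CPM (-0.27, adjusted p = 0.0197), Eef1d, an elongation factor subunit, had -0.29 (adjusted p = 0.0450) and Npm1, a nucleolar chaperone named because of its value, had -0.23 (adjusted p = 0.0468). Eif4b, an initiation factor, rose from 119 to 150 CPM (0.34, adjusted p = 0.00814). The call of Npm1 ended when any library was left out, those of Tpt1 and Eef1d when any but wild-type replicate 2 was, and that of Eif4b without wild-type replicate 1 (adjusted p = 0.0570). Of 36 ribosome assembly factors, 0 fell and 0 rose by edgeR, DESeq2 or limma (median -0.08); at an unadjusted p under 0.05, 4 were lower and 1 higher by edgeR, 0 and 0 by DESeq2, and 5 and 1 by limma. The values of Ncl, or nucleolin, were -0.15 (adjusted p = 0.162; -0.29 and 0.0235 with the length offset), and of Tsr2, which escorts Rps26, -0.27 (adjusted p = 0.0932). Of 14 genes of RNA polymerase I transcription, which makes ribosomal RNA, 1 fell (7.14%, near the 5.41% of all tested genes, median -0.06). It was Taf1d, at -0.54 (edgeR adjusted p = 0.0263), a call that ended when any library was left out. With the length offset 0 of the 14 fell.

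Of 16 genes that control mTOR signalling or TOP translation, 0 fell and 4 rose (25%, against 6.63% of all tested genes; median 0.09). These genes are long (median 4788.5 bases), and among other genes above 4500 bases 13.5% rose, or 30.5% of those with at least 50 CPM. With the length offset described above, 3 of the 16 rose and 1, the cap-binding factor Eif4e, fell (-0.26, adjusted p = 0.0402; named because of its value). Deptor, an inhibitor that binds mTOR, rose from 77.9 ± 8.15 CPM (SD, n = 2) to 116 ± 1.97 CPM (n = 3) (0.57, adjusted p = 0.00208). Eif4ebp2, which represses translation initiation, rose from 28.9 to 48.0 CPM (0.73, adjusted p = 0.00779), Tsc2, which restrains mTOR, had 0.39 (adjusted p = 0.0136), and Rptor, the mTOR partner that binds its targets, had 0.30 (adjusted p = 0.0424); Rptor is named because of its value. The call of Rptor ended when any library was left out, and the calls of Eif4ebp2 and Tsc2 ended without wild-type replicate 1 (adjusted p = 0.0590 and 0.0989).

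Markers of other cells also differed between the genotypes. The counts below stand beside 5.41% of all tested genes that fell and 6.63% that rose. The 18 erythroid markers, such as Hemgn, Hba-a1 and Slc4a1, summed to 7183 and 5960 CPM in wild-type and to 4021, 3716 and 3473 CPM in heterozygous liver, and 14 of them fell (median -0.74). The 11 neutrophil markers summed to 182 and 130.4 CPM against 382, 433 and 489 CPM, and 10 rose (median 1.41). The 9 B cell markers summed to 19.8 and 14.03 CPM against 36.8, 35.5 and 42.1 CPM, and 7 rose (median 1.28). The 7 Kupffer cell markers summed to 243 to 370.3 CPM against 259 to 308 CPM, with 2 of them, Cd163 and Marco, lower by edgeR. The calls of Cd163 and Marco ended in 3 and 4 of the 5 fits that left out a library. DESeq2 and limma each called 1 Kupffer cell marker lower. Of these 7 markers, 5 had fold changes below 0 and 2 above it, among them Emr1 (0.51, edgeR adjusted p = 0.0683). The 7 cholangiocyte markers summed to 104 to 114 CPM against 93.9 to 107 CPM. None of these markers was at 0 in all libraries. The part of these cells in the lower ribosomal protein level was not tested.

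**Figure D5:**
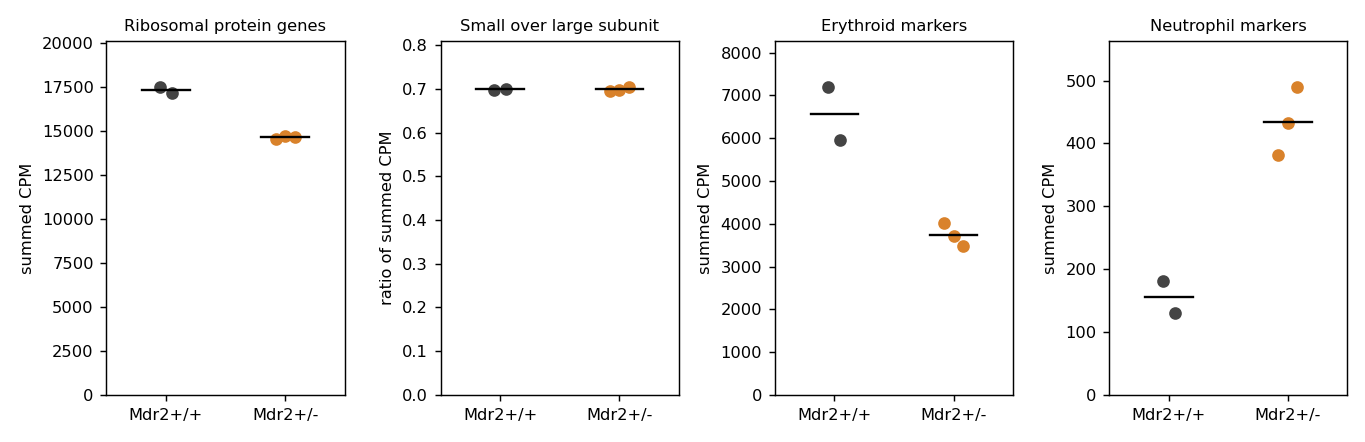
Summed level in each library (points; bars are genotype means; axes from 0) of the ribosomal protein genes (CPM), the ratio of the small to the large subunit sum, and the summed erythroid and neutrophil markers (CPM). The ribosomal protein and erythroid sums are lower and the neutrophil sum higher in all 3 heterozygous libraries, while the subunit ratio stays between 0.696 and 0.703 in all 5.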

How the data were processed

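Total RNA was sequenced as TruSeq libraries on a HiSeq 2000, per the labels' protocols, and TopHat and mm10 are named in the submitters' processing notes. Not given in the sources used here were the TopHat version, counting tool, annotation and strand setting. The deposited values are estimated counts per gene (unit expected counts, not normalised by the authors), few of them whole numbers, at 3.75% to 6.25% of the ribosomal protein values in a library. They were rounded, filtered with filterByExpr (minimum count 10; 13959 genes, 99.9% of counts), scaled by TMM and tested with edgeR 4.0.16 (glmQLFit, glmQLFTest; R 4.3.3), genotype being the only term, with p-values adjusted by Benjamini-Hochberg across every tested gene. SE is the absolute log2 fold change over the square root of F.

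Lengths came from GENCODE M21 principal transcripts, which covered 97.2% of tested genes; RPKM is CPM per kilobase of them. The length offset was, per library, a lowess curve (span 0.3) of log2 CPM (prior count 2) deviations on log2 length. Groups were taken from the sample titles. The libraries of a genotype differed by more than counting error. The chi-square per degree of freedom was 5.302 to 8.865 within and 18.32 to 25.82 between genotypes. Each library was treated as 1 replicate, but this spread does not show that the libraries come from different mice.

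Genes named with values were the 8 members with the most negative and the 8 with the most positive fold change, the 6 highest per length, the stalk and RNA-bound pairs, Rpsa, Rps27a, the paralogs, and at most 3 genes of every other list by p. The members and lists were chosen with earlier results of these data known. Alternatives changed the filter, scaling, test (limma 3.58.1, DESeq2 1.42.0), length and GC offsets, replicate block and the libraries used. The values of some of these genes are not given here.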

Additional observations from a re-analysis of the deposited data

How the results depend on the processing

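Each result was recomputed under 21 alternatives, of which the offset fitted over genes of at least 50 CPM and the one with shortest coding transcripts were chosen after seeing the data. The number of ribosomal protein genes that fell was 49 (21 small, 28 large subunit). It was 8 (4 and 4) with the length offset, 9 (4 and 5) when that offset was fitted without these genes, 13 (5 and 8) with the longest transcript, 9 (4 and 5) with a length and GC offset, 6 (4 and 2) with the offset fitted over genes of at least 50 CPM and 15 (4 and 11) with the shortest coding transcript. The medians over all, small and large subunit genes, -0.25, -0.25 and -0.26, became -0.097, -0.085 and -0.10 with the length offset, -0.10, -0.091 and -0.10 without these genes in its fit, -0.12, -0.14 and -0.12 with the longest transcript, -0.10, -0.089 and -0.11 with length and GC, -0.075, -0.052 and -0.076 over genes of at least 50 CPM, and -0.15, -0.14 and -0.15 with the shortest coding transcript. The median of the other short genes, -0.18, became -0.0053, -0.011, -0.028, -0.0094, 0.029 and -0.065 in the same order. Of the named genes, 3 turned above 0: Rps29 (0.0061) and Rplp2 (0.013) over genes of at least 50 CPM, and Rps27 (0.020 with the length offset, 0.011 without these genes in its fit, 0.017 with length and GC, 0.088 over genes of at least 50 CPM). These shifts follow from the construction of the offsets, and whether the trend itself is technical was not tested.

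Scaling by library size alone gave medians of -0.29, -0.28 and -0.29, a median of -0.21 for other short genes and a log2 ratio of the summed level of -0.28 in place of -0.24, and it moved the split over all genes from 925 higher and 755 lower to 704 and 934. The upper quartile gave medians of -0.28, -0.27 and -0.28. With each library left out in turn, 18 to 30 genes fell (6 to 12 small, 12 to 18 large subunit), with medians of -0.27 to -0.23 over all, -0.26 to -0.24 for the small and -0.28 to -0.23 for the large subunit; 15 of the 49 calls held in all 5 fits. No ribosomal protein gene rose in any setting. A fit with the replicate number as a block left 26 genes lower (10 and 16). The labels do not say that a number pairs libraries, only 2 numbers are shared, and same-numbered libraries correlated at 0.0458 and 0.0433 in their deviations from the group mean. With 2 wild-type libraries those deviations mirror each other, so the 2 values are not separate. They cannot decide whether numbers pair libraries. The limits are 2 wild-type libraries, the unknown strand setting and counting of near-identical copies, and a length trend that runs with genotype. Counts per gene do not limit the tested genes, the lowest of which had a mean of 60.3 CPM.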

Other observations

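Mitochondrial ribosomal protein genes and respiratory chain genes had median transcript lengths of 1226 and 714 bases, and medians below 0. Of 75 mitochondrial ribosomal protein genes, whose products build the separate ribosome of the mitochondrion, 8 fell and 0 rose. The share lower was 10.7%, against 5.41% of all tested genes, and the median log2 fold change was -0.15. DESeq2 called 2 of the 75 lower, beside 541 of all 13959 tested genes, and limma called 9 of the 75. Between 1000 and 1300 bases, 10.6% of the genes outside the cytosolic ribosomal protein group fell, or 29.6% of those with at least 50 CPM. Mrpl52 (-0.38) and Mrps18c (-0.42, a call that ended without wild-type replicate 2 or heterozygous replicate 2) were among those that fell, and 4 of the 75 fell with the length offset (median -0.074). Of 71 tested nuclear-encoded respiratory chain subunits, which work beside the proteins made by that ribosome, 23 fell and 0 rose. The share lower was 32.4%, against 5.41% of all tested genes, and the median was -0.19. Between 600 and 800 bases, 14.1% of the genes outside the cytosolic ribosomal protein group fell, or 36.8% of those with at least 50 CPM. Ndufa5 (-0.46) and Ndufa8 (-0.34), both subunits of complex I, were among them, and 2 of the 71 fell with the length offset (median -0.051). With the length offset, 3.85% of all tested genes fell and 5.01% rose. Whether these groups differ from the cytosolic ribosomal protein genes was not tested.

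Of 12 hepatocyte markers, 2 fell (16.7%, against 5.41% of all tested genes) and 2 rose (16.7%, against 6.63%). Cps1, the first enzyme of the urea cycle, rose from 1274 to 2328 CPM (0.87, edgeR adjusted p = 0.0011) and Ass1, a later enzyme of the same cycle, from 628 to 887 CPM (0.50, adjusted p = 0.0393). The apolipoprotein genes Apoa1 (-0.21, adjusted p = 0.0458) and Apoa2 (-0.28, adjusted p = 0.0233) fell, and neither passed with the length offset (adjusted p = 0.417 and 0.564). Apoa1 is named because of its value. The calls of Ass1, Apoa1 and Apoa2 each ended in 4 of the 5 fits that left out a library.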
